A study of Mus musculus with 14 samples.

Results

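A set of 10 immediate early genes was followed through primary mouse small cell lung cancers, a neuroendocrine carcinoma, with and without deletion of the histone acetyltransferase gene Crebbp. The genes, taken as a named list and matched by symbol, were Fos, Fosb, Jun, Junb, Egr1, Nr4a1, Ier2, Atf3, Dusp1 and Btg2, which make 10 of the 23284 genes in the count files. All 10 were found in all 14 files, and all 10 had enough counts to be tested. The 7 Rb1/Trp53/Crebbp tumours, called RPC here, carried the Crebbp deletion on top of the Rb1 and Trp53 deletions. The 7 Rb1/Trp53 tumours, called RP here, carried the deletions of the tumour suppressor genes Rb1 and Trp53 that both groups share. The Cre driver and the strain and age of the mice are not given in the labels. Nor do they say whether any mouse gave more than 1 tumour, and p-values therefore reflect the spread among these samples alone, which may be technical. RNA was read as counts per gene, between 10060969 and 24052799 per RPC library and between 10965714 and 23678648 per RP library, and levels are given as CPM, counts scaled for library size with TMM factors.

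Immediate early genes are switched on within minutes of a growth factor, neuronal or stress signal, without new protein synthesis. Proteins already in place, such as SRF with its ternary complex partners and CREB, sit at their promoters and recruit coactivators, among them the protein that Crebbp encodes. Their transcripts are short-lived, and many of their products are transcription factors or inhibitors that shape the later response. FOS and JUN proteins pair as AP-1.

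Promoters are shown first for the 2 AP-1 genes Junb and Jun, which had the smallest p-values of the 10, for Dusp1 and Btg2, which hold the palindromic motif, and for Fos, which holds a TATA box, because CREB, after which Crebbp is named, binds the cyclic AMP response element (CRE) in several of them. RefSeq promoters of GRCm38.p6 were matched for 8 of the 10 genes (Fos, Fosb, Jun, Junb, Nr4a1, Atf3, Dusp1 and Btg2), and the 250 bases before the start site were searched. Those of Junb, Jun, Fos, Dusp1 and Btg2 are printed 5′ to 3′ on the strand of the gene, with the short CRE core (TGACG, either strand) in capitals. The counts were made on the mm9 genome, so these positions describe the promoters only.
Junb promoter, chr8:84978749-84978998, minus strand: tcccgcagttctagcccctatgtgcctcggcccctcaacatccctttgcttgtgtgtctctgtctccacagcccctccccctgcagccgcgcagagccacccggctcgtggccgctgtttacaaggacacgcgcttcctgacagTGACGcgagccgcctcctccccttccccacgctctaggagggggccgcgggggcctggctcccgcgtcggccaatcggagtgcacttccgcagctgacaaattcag
Jun promoter, chr4:95052223-95052472, minus strand: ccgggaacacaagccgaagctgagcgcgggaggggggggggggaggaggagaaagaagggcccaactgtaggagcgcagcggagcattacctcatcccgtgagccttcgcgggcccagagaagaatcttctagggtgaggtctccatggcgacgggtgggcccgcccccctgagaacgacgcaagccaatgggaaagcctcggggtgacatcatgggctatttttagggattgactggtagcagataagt
Fos promoter, chr12:85473640-85473889, plus strand: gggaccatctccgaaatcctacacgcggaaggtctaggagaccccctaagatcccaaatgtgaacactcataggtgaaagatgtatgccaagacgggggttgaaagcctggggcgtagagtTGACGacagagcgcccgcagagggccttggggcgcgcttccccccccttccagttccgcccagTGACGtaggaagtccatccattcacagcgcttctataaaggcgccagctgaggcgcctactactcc
Dusp1 promoter, chr17:26508473-26508722, minus strand: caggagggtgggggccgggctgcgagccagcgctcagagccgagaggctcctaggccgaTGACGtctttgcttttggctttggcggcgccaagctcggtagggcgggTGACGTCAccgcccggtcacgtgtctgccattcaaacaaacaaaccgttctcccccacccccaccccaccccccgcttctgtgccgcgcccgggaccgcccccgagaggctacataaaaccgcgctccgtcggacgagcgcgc
Btg2 promoter, chr1:134079156-134079405, minus strand: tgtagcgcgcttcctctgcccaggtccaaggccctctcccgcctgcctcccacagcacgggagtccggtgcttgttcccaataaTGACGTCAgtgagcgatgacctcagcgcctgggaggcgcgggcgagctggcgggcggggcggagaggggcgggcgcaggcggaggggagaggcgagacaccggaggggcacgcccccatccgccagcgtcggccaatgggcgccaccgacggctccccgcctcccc

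The palindromic CRE, TGACGTCA, was found in Dusp1 and Btg2, which is 2 of the 8 genes, and in 1.55% of all 32851 promoters of this length. It holds the core on both strands. The core TGACG was found in 7 of 8, all but Jun, against 17.8% of all promoters. Fos had 2 copies, 66 and 129 bases before the start, and Junb had 1, at 106 bases. TATAAA on either strand was found in 1 of 8, Fos, against 12.4%. The CArG box that SRF binds was found in 0 of 8 windows against 1.47% of all, TGANTCA, the AP-1 site, in 0 of 8 against 6.75%, and the EGR site GCGTGGGCG in 0 of 8 against 0.536%. A match of letters describes the window and not a bound factor.

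The series was checked before the comparison. Crebbp itself averaged 64.7 ± 4.24 CPM in RPC tumours and 76.6 ± 13.9 CPM in RP tumours (means and SDs of 7, log2 fold change -0.24 with an SE of 0.12, adjusted p in edgeR = 0.264), and its ranges overlapped, so its level did not separate the genotypes. Which exons were deleted is not given in the labels, and a count over the gene also takes reads outside them. The 12 neuroendocrine markers summed to between 2760 and 5494 CPM in RPC tumours and between 5496 and 10706 CPM in RP tumours, with every RPC sum below every RP sum, and the part of this in the results was not tested. RPC tumours 3, 5 and 6 stood apart. Their 11 macrophage markers summed to between 5.54 and 8.72 CPM, against 499 to 2098 CPM in the other 11 tumours. Endothelial markers summed to between 13.3 and 120 CPM there, against 375 to 2445 CPM in the other 11, and smooth muscle and mural markers to at most 9.28 CPM, against at least 73.0 CPM. Fibroblast markers summed to between 37.8 and 152 CPM there, against 310 to 956 CPM. Below every other tumour in all 3 were 11 of 11 macrophage markers, 9 of 10 endothelial, 7 of 10 fibroblast and 7 of 7 smooth muscle and mural markers. At 0 in all 3 were Emr1, a macrophage marker, Cdh5, Tie1, Emcn and Cldn5, endothelial markers, and Mfap5, a fibroblast marker. The exceptions ran the other way: Kdr, at up to 82.8 CPM, of the endothelial list, and Pdgfra (117 CPM), Fbln1 (65.0 CPM) and Lum (8.02 CPM), of the fibroblast list, each had the highest level of all 14 tumours among these 3. In a whole tumour, fewer cells of a type and less RNA per cell cannot be told apart. The labels do not say why these 3 stood apart, nor whether they were whole, sorted or cultured samples, and this was not tested.

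Across the 10 genes, Junb fell in RPC tumours, to a mean of 35.8 CPM against 77.9 CPM in RP tumours. Jun and Egr1 had lower means in RPC tumours that missed the threshold, and the fitted log2 fold changes of Nr4a1 and Ier2 were within 0.1 of 0. The test was edgeR's quasi-likelihood test over all 14804 tested genes with Benjamini-Hochberg adjustment, called at an adjusted p under 0.05. It called 1 of the 10 genes, lower, where 2.21% of all tested genes were called in either direction, 1.12% lower and 1.09% higher. At an unadjusted p under 0.05, 3 of 10 were lower and 0 higher, where 11.1% of all tested genes were lower. Fitted log2 fold changes were negative for 8 of 10, with a median of -0.63, while 49.8% of all tested genes were negative and their median was 0.002. Groups were separated without overlap for 0 of the 10 genes, against 1.15% of all tested genes.

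**Figure D1:**
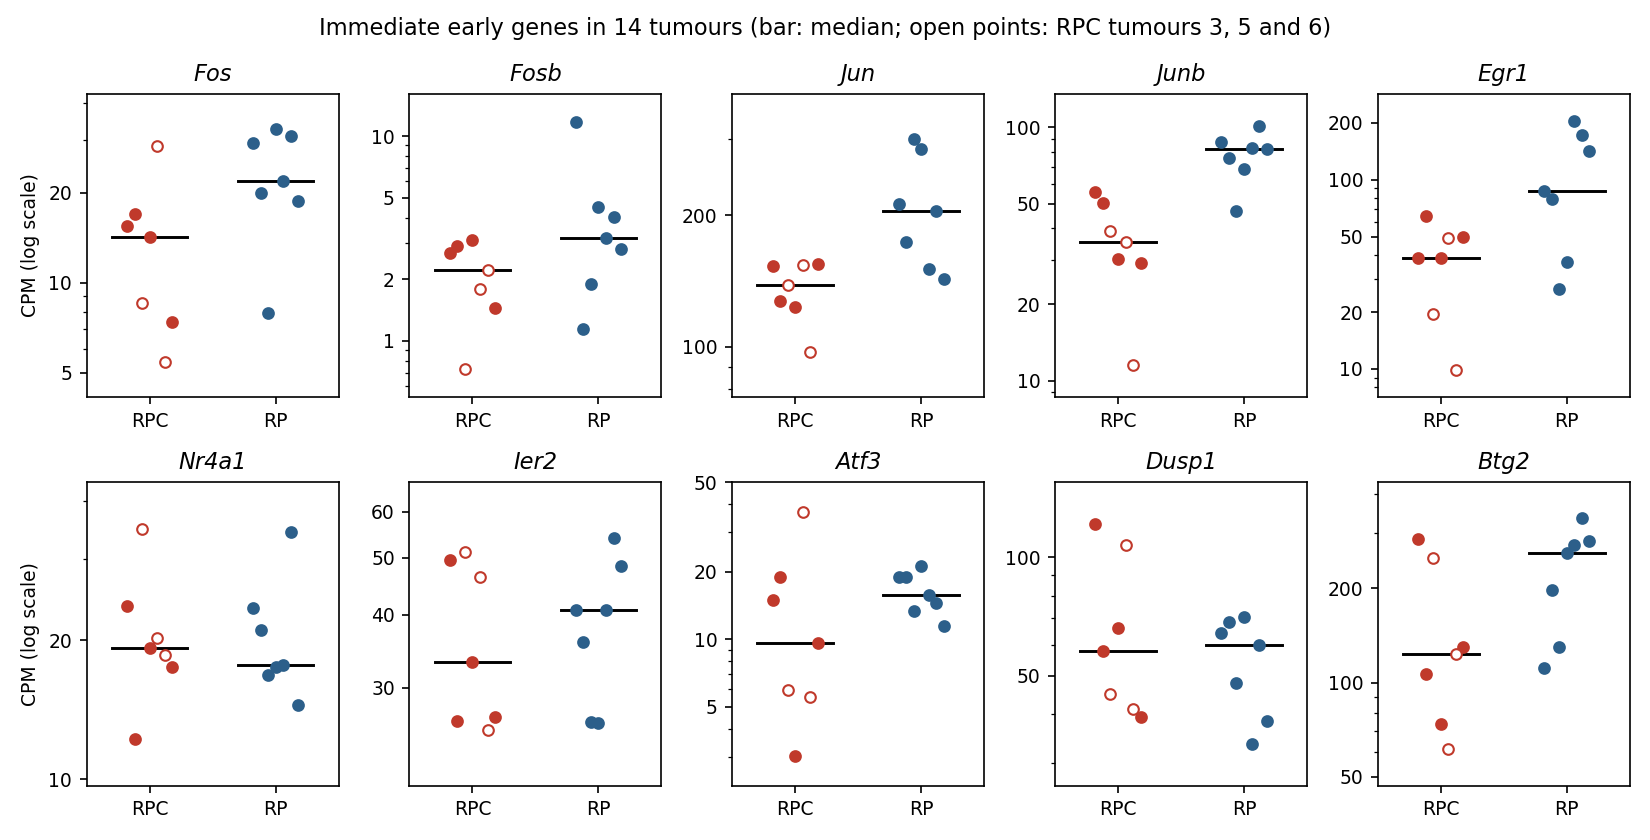
Level of each of the 10 immediate early genes in each tumour, in CPM on a log axis, with RPC tumours in red on the left and RP tumours in blue on the right of each panel, and black bars at the group median. All 7 RPC tumours lie under the RP median for Jun, Junb, Egr1 and Fosb, while the groups share most of their range for Nr4a1, Ier2 and Dusp1.

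Junb, an AP-1 subunit that can hold back JUN in many cells, was the gene called. Its level ran from 11.5 CPM in RPC tumour 6 to 55.5 CPM, with a median of 35.3 CPM, in RPC tumours, and from 46.9 to 102 CPM, with a median of 82.1 CPM, in RP tumours. All 7 RPC tumours were below the RP median and 5 of 7 were below every RP tumour. The mean was 35.8 ± 14.5 CPM in RPC and 77.9 ± 17.1 CPM in RP tumours (means and SDs of 7, log2 fold change -1.12 with an SE of 0.27, adjusted p in edgeR = 0.0475). The call was lost without any 1 of RPC tumours 2, 3, 4, 5 and 7 and RP tumours 1, 2, 4, 5, 6 and 7 (edgeR adjusted p from 0.0507 to 0.101), and kept in the other 3 of 14 such fits. Without RPC tumours 3, 5 and 6 the log2 fold change was -0.91 (SE 0.25) and the call was lost too (edgeR adjusted p = 0.175, where 0.0716% of tested genes were called). The 4 other RPC tumours held between 29.0 and 55.5 CPM of Junb.

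Jun, the core AP-1 subunit, had a narrow range among RPC tumours. It ran from 97.4 to 155 CPM, median 139 CPM, in RPC tumours and from 143 to 300 CPM, median 205 CPM, in RP tumours. All 7 RPC tumours were below the RP median and 4 were below every RP tumour, with RP tumours 3 and 4 the highest. The log2 fold change of -0.63 (SE 0.18, 95% interval -1.01 to -0.24) had an unadjusted p of 0.00339 and missed the threshold (edgeR adjusted p = 0.0755).

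Fos and Fosb encode partners of JUN proteins in AP-1. Fos was between 5.44 and 28.6 CPM, median 14.2 CPM, in RPC tumours and between 7.95 and 32.7 CPM, median 21.9 CPM, in RP tumours (log2 fold change -0.74 with an SE of 0.37, adjusted p in edgeR = 0.271). RPC tumour 5, at 28.6 CPM, and RP tumour 3, at 7.95 CPM, each lay among the values of the other genotype. Fosb was the lowest of the 10, between 0.732 and 3.11 CPM, median 2.23 CPM, in RPC tumours and between 1.14 and 11.7 CPM, median 3.19 CPM, in RP tumours (log2 fold change -0.97 with an SE of 0.48, adjusted p in edgeR = 0.263). Its RP mean leans on RP tumour 1, the highest at 11.7 CPM, with the next at 4.49 CPM. All 7 RPC tumours were below the RP median of Fosb, and 6 of 7 were below that of Fos.

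Egr1, a zinc finger factor and a standard readout of ERK signalling, had the largest fitted difference of the 10 and the widest spread. It ran from 9.90 to 64.3 CPM, median 38.6 CPM, in RPC tumours and from 26.3 to 205 CPM, median 87.1 CPM, in RP tumours. RP tumours 5, 6 and 7 were high, at 205, 173 and 143 CPM, whereas RP tumours 3 and 4 lay inside the RPC range. The log2 fold change was -1.47 (SE 0.47, 95% interval -2.48 to -0.47), at an unadjusted p of 0.00702 and an edgeR adjusted p of 0.102. Without RP tumour 3, whose Egr1 was the lowest of its group, the gene was called (log2 fold change -1.64, edgeR adjusted p = 0.0438). The number of all tested genes called also changed when 1 tumour was left out, between 51 and 898. Nr4a1, an orphan nuclear receptor of the same early wave, ran from 12.3 to 34.7 CPM in RPC tumours and from 14.5 to 34.2 CPM in RP tumours, with medians of 19.2 and 17.7 CPM in RPC and RP (log2 fold change 0.01, 95% interval -0.51 to 0.53).

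Atf3, a stress-induced factor related to CREB, spread far more among RPC than among RP tumours. It ran from 3.03 CPM in RPC tumour 4 to 36.9 CPM in RPC tumour 5, median 9.59 CPM, and from 11.4 to 21.2 CPM, median 15.7 CPM, in RP tumours. The SD of its log2 CPM was 1.21 in RPC and 0.31 in RP tumours, a difference that was not tested. Btg2, an antiproliferative protein and a known p53 target, ran from 61.2 to 288 CPM, median 123 CPM, in RPC tumours and from 111 to 335 CPM, median 259 CPM, in RP tumours (log2 fold change -0.62 with an SE of 0.35, adjusted p in edgeR = 0.329). RPC tumours 1 and 3, at 288 and 250 CPM, reached the levels of the higher RP tumours, and the other 5 RPC tumours were at or below 130.1 CPM.

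Ier2, a nuclear protein of the early response, ran from 25.4 to 51.3 CPM, median 33.2 CPM, in RPC tumours and from 26.1 to 54.1 CPM, median 40.8 CPM, in RP tumours (log2 fold change -0.07, 95% interval -0.56 to 0.41). Dusp1, a phosphatase that switches MAP kinases off, ran from 39.3 to 121 CPM, median 57.7 CPM, in RPC tumours and from 33.7 to 70.6 CPM, median 59.9 CPM, in RP tumours (log2 fold change 0.32, 95% interval -0.28 to 0.92). RPC tumours 1 and 5, at 121 and 108 CPM, were above every RP tumour. The edgeR adjusted p was 0.873 for Ier2, 0.529 for Dusp1 and 0.989 for Nr4a1, and each interval includes differences in both directions.

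**Figure D2:**
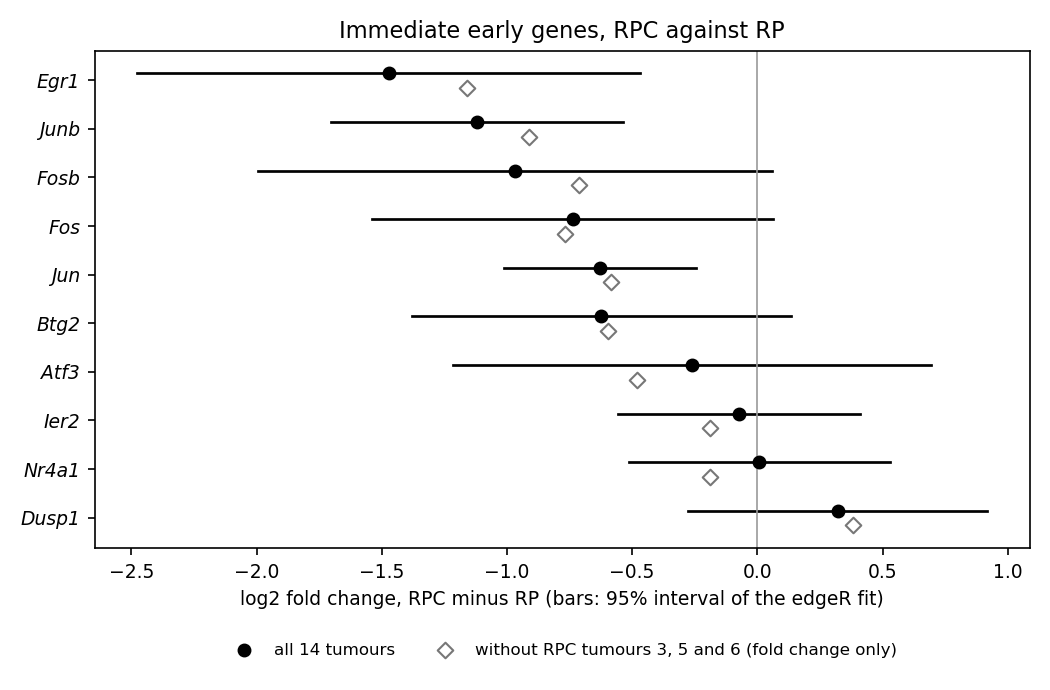
Fitted log2 fold change of each of the 10 genes, RPC minus RP, over all 14 tumours (black points, bars for the 95% interval) and without RPC tumours 3, 5 and 6 (open diamonds). The intervals of Egr1, Junb and Jun end below 0, and the diamonds of these 3 genes stand at -1.16, -0.91 and -0.58.

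The 3 RPC tumours that stood apart overlapped the other 4 RPC tumours for each of the 10 genes. Atf3 and Fos were higher in RPC tumour 5 than in any other RPC tumour, and Junb and Egr1 were lowest in RPC tumour 6. Without the 3, fold changes were negative for 9 of the 10 genes with a median of -0.59, 3 were lower at an unadjusted p under 0.05, and edgeR called 0 of 10. In that fit 51% of all tested genes were negative, 7.05% were lower at an unadjusted p under 0.05 and 0.0716% were called. With the mean level of 6 non-tumour marker lists as a term in the fit, the median of the 10 genes was -0.60, 2 genes were lower at an unadjusted p under 0.05 and edgeR again called 0 of 10, where 5.68% of all tested genes were lower at that cut-off and 0.0203% were called. Fosb, -0.97 over all 14 tumours, was -0.62 with the term, and Atf3, -0.26 over all 14, was -0.48 without the 3 tumours. In the 11 other tumours, the same non-tumour score was related to none of the 10 genes beyond permutation (10 relations, 100000 permutations each; Junb r = 0.38 and rho = 0.21, permutation adjusted p = 0.693 and 0.924; without the 2 tumours farthest on the score r = 0.15). Atf3 had the largest r of the 10, 0.49 (rho = 0.45, permutation adjusted p = 0.693 and 0.924), and -0.18 without the 2 farthest tumours, so its relation rested on them.

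Set per kilobase of the longest GENCODE transcript, so that genes can be compared, Btg2 and Jun had the highest levels of the 10 in both genotypes. Btg2 had 53.8 ± 31.8 CPM per kb in RPC and 82.9 ± 30.4 in RP tumours, and Jun 42.6 ± 6.65 in RPC and 65.8 ± 19.3 in RP tumours (SD, n = 7 each), a gap smaller than the SD of Btg2 in each genotype. In RPC tumours Dusp1 (34.3 ± 16.7), Ier2 (24.3 ± 7.68) and Junb (19.8 ± 8.04) came next, each within an SD of its neighbour. Egr1, Nr4a1, Atf3 and Fos followed in RPC tumours, between 6.55 and 8.61 CPM per kb and within an SD of each other, and Fosb was last at 0.563. In RP tumours Junb came after Jun, at 43.0 ± 9.48 CPM per kb, ahead of Dusp1, Ier2 and Egr1, which lay between 23.9 and 27.5. Fos, Atf3 and Nr4a1 lay between 8.13 and 10.9 in RP tumours, and Fosb was last there too, at 1.10.

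Across tumours most pairs of the 10 genes had a weak positive correlation, and Jun and Egr1 a negative one. Co-variation was measured as Pearson's r of log2 CPM, as deviations from the genotype means, in the 11 tumours left without RPC tumours 3, 5 and 6, since libraries that form separate clusters should not be pooled. Of the 45 pairs, 36 had a positive r and 9 a negative one, with a median of 0.28 and a range from -0.82 to 0.75. Over all pairs of tested genes in the same tumours the median was -0.002, 49.8% were positive and 25.5% were at or above 0.28. There were 6 pairs, 5 of them positive, that passed an unadjusted permutation p of 0.05, and 0 of 45 passed after Benjamini-Hochberg adjustment with either coefficient.

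**Figure D3:**
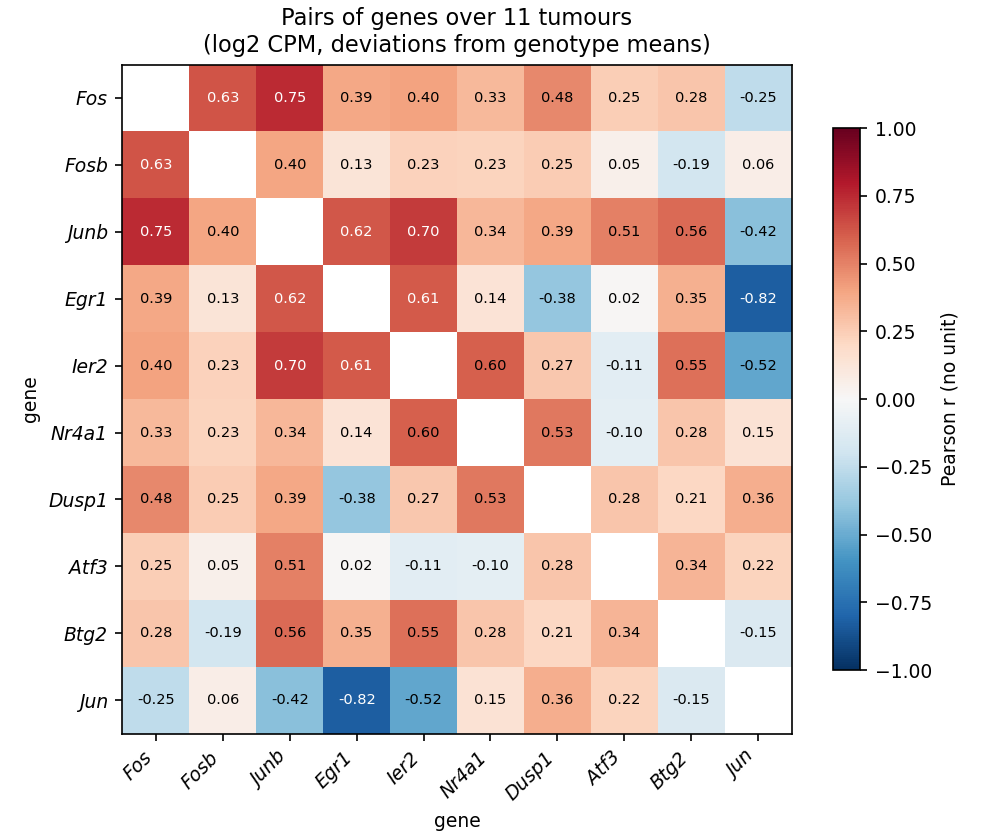
Pearson r for each of the 45 pairs of immediate early genes over 11 tumours (7 RP and 4 RPC), from log2 CPM as deviations from the genotype means. Pairs among Fos, Junb, Egr1 and Ier2 run from 0.39 to 0.75, a range that also holds Fos with Fosb (0.63) and Nr4a1 with Ier2 (0.60). Without the 2 tumours farthest on Fos, r was -0.34 for Fos and Egr1 and -0.25 for Fos and Ier2. The column of Jun is negative for 5 of its 9 partners.

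The pair of AP-1 partners Fos and Junb had the highest r, 0.75 (rho = 0.59, permutation adjusted p = 0.158 for r and 0.454 for rho), but it was 0.23 without the 2 tumours farthest on Fos, so it rested on them. Junb and Ier2 had r = 0.70 (rho = 0.69, permutation adjusted p = 0.262 and 0.416), and 0.54 without the 2 farthest on Junb. Both Junb and Ier2 lie on chromosome 8, and a shared copy number was not tested. Fos and Fosb, the 2 FOS family members, had r = 0.63 and a rho of 0.85 (permutation adjusted p = 0.339 and 0.0535), and r = 0.65 without the 2 farthest on Fos. Junb had a positive r with 8 of its 9 partners and the highest median, 0.51.

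The pattern of Jun differed in sign. Its median r with the other 9 genes was -0.15, and it was positive with 4 of them. Jun and Egr1 had r = -0.82 (rho = -0.67, permutation adjusted p = 0.0981 and 0.416) and r = -0.71 without the 2 tumours farthest on Jun. Fos and Jun had r = -0.25 (rho = 0.10, permutation adjusted p = 0.670 and 0.896), which became 0.84 without the 2 tumours farthest on Fos, so its sign rested on them. RP tumours 3 and 4 had the highest Jun, 300 and 284 CPM, and the lowest Egr1 of their group, 26.3 and 36.8 CPM. RP tumours 5 and 7 showed the reverse, with 151 and 143 CPM of Jun and 205 and 143 CPM of Egr1. Both genes were lower at an unadjusted p under 0.05 in RPC than in RP tumours.

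Within the 7 RP tumours alone the picture was similar: the median r was 0.30, 33 of 45 pairs were positive, and 28.7% of all gene pairs were at or above that median. Egr1 and Ier2 (r = 0.91, rho = 0.75, exact permutation adjusted p = 0.131 and 0.496; r = 0.60 without the 2 tumours farthest on Egr1), Junb and Ier2 (r = 0.86, rho = 0.86, exact permutation adjusted p = 0.129 and 0.496; r = 0.86 without 2) and Junb and Egr1 (r = 0.85, rho = 0.82, exact permutation adjusted p = 0.129 and 0.496; r = 0.75 without 2) led there. Jun and Egr1 were again opposed (r = -0.86, rho = -0.75, exact permutation adjusted p = 0.167 and 0.496; r = -0.79 without 2). None of the 45 passed the adjusted threshold. The 4 RPC tumours left were too few for values of their own.

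**Figure D4:**
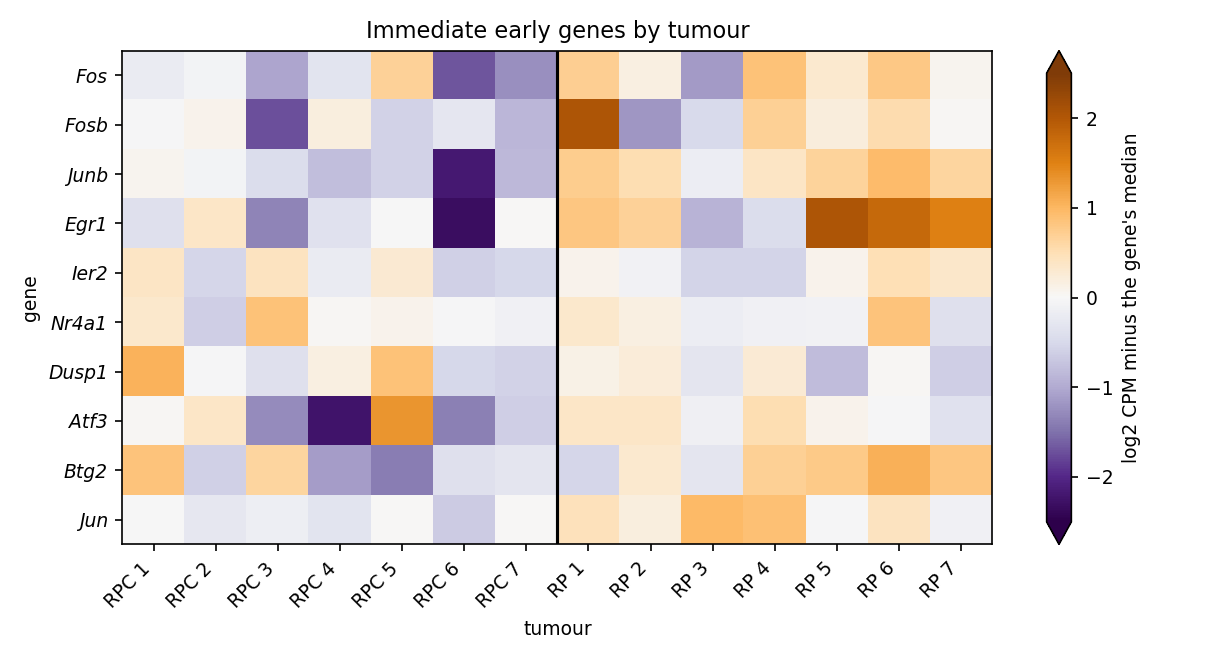
Log2 CPM of each gene minus its median over the 14 tumours, with the 7 RPC tumours left of the line and the 7 RP tumours right of it. RPC tumour 6 is below the median for all 10 genes, RP tumours 1 and 6 are above it for 9 of 10, and RP tumour 3 is above it for 1 of 10.

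The SD of log2 CPM within genotypes was largest for Egr1, 1.03, above that of 77.7% of all tested genes, and smallest for Jun, 0.34, above that of 25.2%. Tumours also differed in how many of the genes they held high. RP tumour 6 ranked among the 4 highest of 14 for 8 of the 10 genes and RP tumour 1 for 7. RPC tumour 6 ranked among the 4 lowest for 7 genes and RPC tumour 7 for 6. The mean deviation of log2 CPM from the gene medians was lowest in RPC tumour 6 and highest, at 0.69, in RP tumour 6. The genotypes overlapped in it. RPC tumour 1, at 0.21, was above 3 RP tumours, and RP tumour 3, at -0.32, was below 3 RPC tumours.

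Likeness to the set was measured as the median r with the 10 genes over the 11 tumours, among 11685 other genes with a mean of at least 5 CPM. The closest patterns were those of Brd1 (0.58), Bik (0.57), Rapgef3 (0.57), Tbc1d9b (0.56) and Accn2 (0.56). Ncaph2, Mkl1, Pcbp2, Cerk and Zfp740 completed the 10, between 0.54 and 0.56. Brd1 encodes a subunit of histone acetyltransferase complexes, Bik a pro-apoptotic protein and Rapgef3 an exchange factor activated by cyclic AMP. Function played no part in the ranking, so it shows no link of function to the set. Nr4a1 of the set lies on chromosome 15, and copy number shared with genes on the same chromosome was not tested. Mkl1, a coactivator of SRF, was the only 1 of these 10 that was also in a list drawn up for the pathway. None of the other immediate early genes listed was among them, and none of these 10 was called between RPC and RP tumours (lowest edgeR adjusted p = 0.179, for Pcbp2).

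Other genes of the early response also fell in RPC tumours, among them Trib1, Maff and Klf10. Lists of other AP-1 and MAF subunits, other early transcription factors and other early genes held 45 tested genes. Of these 8 fell in RPC tumours and 0 rose (edgeR adjusted p under 0.05), which is 17.8% against 1.12% of all tested genes called lower. The lists were drawn up with earlier results of these data known, so this share describes them and is not a test of them. Fold changes were negative for 33 of 45, against 49.8% of all tested genes, with a median of -0.60 against 0.002. At an unadjusted p under 0.05, 15 were lower, against 11.1% of all tested genes.

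Among AP-1 and MAF genes, 2 of 8 fell. Maff, a small MAF protein, was between 12.6 and 55.6 CPM, median 46.5 CPM, in RPC tumours and between 71.3 and 164 CPM, median 109 CPM, in RP tumours, with no overlap (log2 fold change -1.52 with an SE of 0.30, adjusted p in edgeR = 0.0244). Its relative Mafk was between 10.2 and 46.7 CPM in RPC and between 43.6 and 90.8 CPM in RP tumours (log2 fold change -1.13 with an SE of 0.28, adjusted p in edgeR = 0.0472). Of the 16 other early transcription factors 1 fell, the zinc finger gene Klf10, which responds to TGF-beta. It was between 53.7 and 84.0 CPM in RPC and between 83.2 and 161 CPM in RP tumours (log2 fold change -0.96 with an SE of 0.17, adjusted p in edgeR = 0.0177).

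Of the 21 early genes that are not transcription factors 5 fell. The pseudokinase gene Trib1 was between 29.8 and 50.5 CPM in RPC and between 84.3 and 155 CPM in RP tumours, without overlap (log2 fold change -1.47 with an SE of 0.18, adjusted p in edgeR = 0.00484). The stress gene Gadd45b was between 40.6 and 129 CPM in RPC and between 128 and 270.2 CPM in RP tumours (log2 fold change -1.40 with an SE of 0.28, adjusted p in edgeR = 0.0246). Nfkbia, which encodes the inhibitor of NF-kappaB, was between 24.9 and 56.1 CPM in RPC and between 54.3 and 94.9 CPM in RP tumours (log2 fold change -0.93 with an SE of 0.19, adjusted p in edgeR = 0.0255).

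Arc, an activity-induced synaptic gene, was between 11.6 and 38.4 CPM in RPC and between 23.3 and 215 CPM in RP tumours (log2 fold change -2.06 with an SE of 0.46, adjusted p in edgeR = 0.0370). The fifth was Socs3, an inhibitor of cytokine signalling that was named after its values were seen, between 22.5 and 80.0 CPM in RPC and between 42.8 and 203 CPM in RP tumours (log2 fold change -1.34 with an SE of 0.32, adjusted p in edgeR = 0.0431). All 7 RPC tumours were below the RP median for each of these 5 genes, and Trib1, like Maff, did not overlap between genotypes. Of all tested genes 1.15% did not overlap, in either direction.

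The calls varied with the tumours included. Without RPC tumours 3, 5 and 6, or with the term for non-tumour markers, edgeR called 0 of the 45, where 0.0716% and 0.0203% of all tested genes were called. Without the 3 tumours 33 of 45 fold changes were negative, with a median of -0.31, and 12 genes were lower at an unadjusted p under 0.05, against 51% and 7.05% of all tested genes. With the term 31 were negative, with a median of -0.22, and 9 were lower, against 51.8% and 5.68%. Without the 3 tumours the log2 fold change was -1.38 for Trib1 (edgeR adjusted p = 0.0618), -2.06 for Arc, -1.23 for Maff, -1.12 for Gadd45b, -0.99 for Socs3, -0.80 for both Klf10 and Mafk, and -0.75 for Nfkbia. With the term it was -1.30 for Trib1 (edgeR adjusted p = 0.0534), while Mafk, at -0.71, and Socs3, at -0.87, were smaller by over 1.5 times. The 8 became 5 without RPC tumour 1, 4 or 6 or RP tumour 4 or 5, 2 without RPC tumour 3 or RP tumour 6, and 4 without RP tumour 2. With 1 tumour left out, edgeR called between 51 and 898 of all tested genes, against 327 with all 14 tumours. A call gained or lost in such a fit, here or below, need not be particular to the gene. Klf10 and Trib1 passed whichever of the 14 tumours was dropped (highest edgeR adjusted p = 0.0498 and 0.0200). Maff and Gadd45b missed the threshold without RPC tumour 3 or RP tumour 6 (highest edgeR adjusted p = 0.0569 and 0.0572), and Nfkbia without either of these or RP tumour 2 (0.0572). Arc passed only without RPC tumour 7 or RP tumour 1, 3 or 7 (otherwise edgeR adjusted p up to 0.0793). Mafk passed only without RPC tumour 5 or 7 or RP tumour 3 (otherwise up to 0.0962), and Socs3 only without RPC tumour 2 or 7 or RP tumour 3 (otherwise up to 0.0896).

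**Figure D5:**
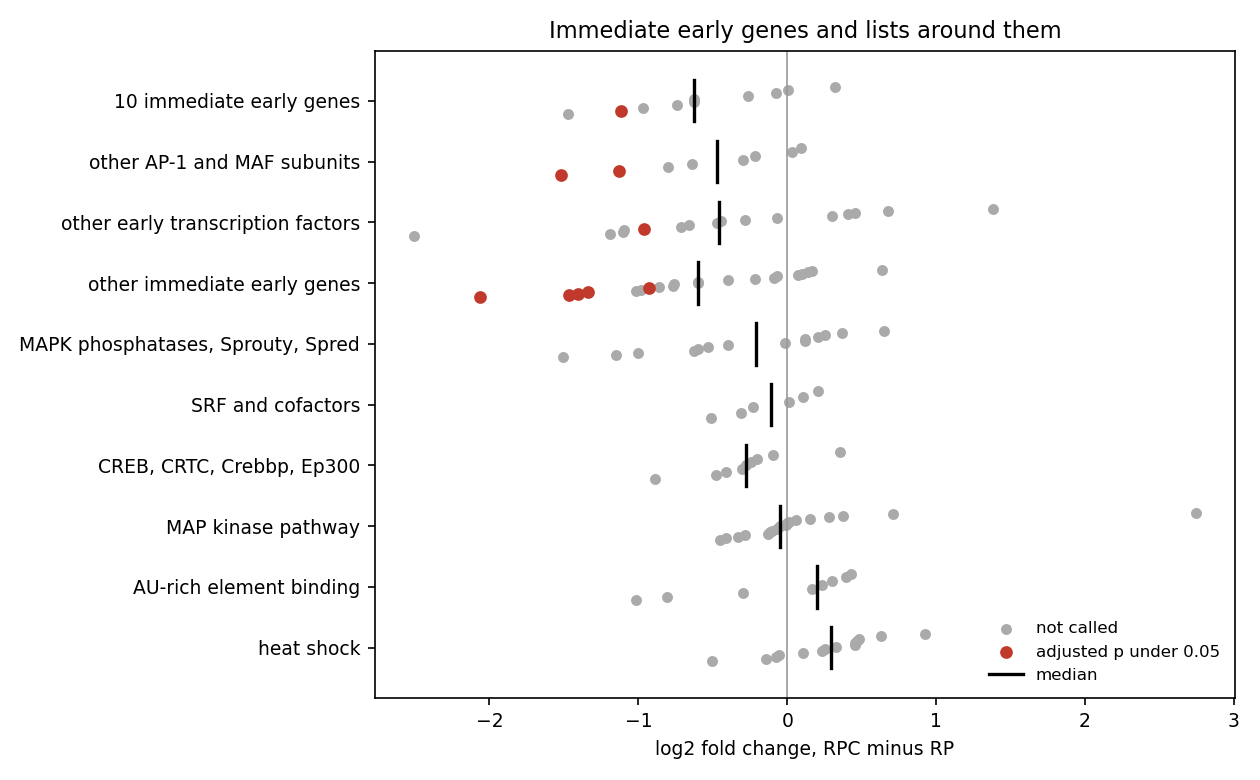
Log2 fold change, RPC minus RP, of every tested gene of the 10 immediate early genes and of 9 lists around them, with genes called by edgeR at an adjusted p under 0.05 in red and a black bar at each list's median. The calls, all negative, lie in the top 4 lists, and heat shock genes have the highest median, 0.29.

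None of the 6 lists of genes above and beside the early response held a gene that edgeR called. DESeq2 passed Dusp6, Mapk3, Map2k3, Map2k6 and Zfp36 in them and limma-voom passed Map2k6 (Mapk3 was named after its values were seen). Neither tool called a gene among SRF, CREB family and heat shock genes. Over all 14804 tested genes DESeq2 called 1431 and limma-voom 503, so these calls are no mark of the lists. Of 14 MAPK phosphatases, Sprouty and Spred genes, which feed back on ERK, 0 passed the edgeR test, with a median of -0.21. At an unadjusted p under 0.05, 2 were lower, against 11.1% of all tested genes. Dusp6, the phosphatase of ERK, averaged 33.7 ± 19.1 CPM in RPC and 95.5 ± 43.6 CPM in RP tumours (means and SDs of 7, log2 fold change -1.51 with an SE of 0.42, adjusted p in edgeR = 0.0684), and was called without RPC tumour 7 (edgeR adjusted p = 0.0331) or RP tumour 3 (0.0255). Its log2 fold change was -1.03 without RPC tumours 3, 5 and 6 and -0.86 with the non-tumour term (edgeR adjusted p = 0.330 and 0.449). Spry1, an inhibitor of receptor tyrosine kinase signalling, was at most 19.7 CPM in RPC and at least 19.96 CPM in RP tumours, without overlap (log2 fold change -1.001, edgeR adjusted p = 0.150), and its log2 fold change was -0.57 without the 3 tumours and -0.51 with the term. SRF and its cofactors had a median of -0.11 over 6 genes, with 0 calls (edgeR; 0 at an unadjusted p under 0.05), Mkl2 at -0.31 and Elk4 at -0.51.

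CREB family genes, CRTC coactivators, Crebbp and Ep300 had a median of -0.28 over 9 genes, 8 of them negative, and 0 calls (edgeR; 1 higher at an unadjusted p under 0.05). That gene was Creb1 (log2 fold change 0.36 with an SE of 0.16, adjusted p in edgeR = 0.223), above the RP median in 7 of 7 RPC tumours and called without RP tumour 3 (0.0488). It was 0.22 without RPC tumours 3, 5 and 6 and 0.17 with the term (edgeR adjusted p = 0.713 and 0.831). Crtc3 stood at -0.41 (SE 0.20). MAP kinases and their neighbours had a median of -0.05 over 19 genes and 0 calls by edgeR. At an unadjusted p under 0.05, 3 of them were higher and 3 lower, against 21.3% of all tested genes in both directions. Map2k6, a kinase that activates p38, had the largest difference there, 21.4 ± 15.1 CPM in RPC and 3.21 ± 3.35 CPM in RP tumours (means and SDs of 7, log2 fold change 2.75 with an SE of 0.75, adjusted p in edgeR = 0.0659), and was called without RP tumour 3 (0.0385). Map2k3, which also acts on p38, stood at -0.45 (SE 0.13, edgeR adjusted p = 0.0774), and was called without RPC tumour 1 (0.0432) or RP tumour 3 (0.0401).

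Proteins that bind AU-rich elements in short-lived transcripts had a median of 0.20 over 8 genes and 0 calls (edgeR; 1 higher and 1 lower at an unadjusted p under 0.05). Zfp36, which speeds the decay of such transcripts and is an early gene itself, averaged 15.1 ± 7.73 CPM in RPC and 30.5 ± 8.63 CPM in RP tumours (means and SDs of 7, log2 fold change -1.01 with an SE of 0.32, adjusted p in edgeR = 0.0967), and was called without RP tumour 3 (0.0484). Its log2 fold change was -0.59 without RPC tumours 3, 5 and 6 and -0.46 with the term (edgeR adjusted p = 0.427 and 0.526). It is also among the 45 early genes above. Tia1, a stress granule protein, stood at 0.40 (SE 0.16), at 0.14 without the 3 tumours and at 0.11 with the term. Heat shock genes had a median of 0.29 over 14 genes, 10 of them positive, and 0 calls (edgeR; 0 at an unadjusted p under 0.05). Hspa8, a constitutive chaperone, was at 2549 ± 625 CPM in RPC and 1841 ± 660 CPM in RP tumours (SD, n = 7 each; edgeR adjusted p = 0.276), and Dnaja1, its cochaperone, stood at 0.33 (SE 0.17). Without the 3 tumours their log2 fold changes were 0.21 and 0.09, and with the term 0.16 and 0.06, against 0.47 and 0.33 over all 14 tumours.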

How the data were processed

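Poly(A) RNA of 14 tumours was made into libraries with the NEBNext Ultra RNA kit, per the labels' protocols, a kit that does not mark strand. The deposited files give raw read counts per gene symbol, not normalized. bcl2fastq 1.8.2, TopHat2 2.0.12, HTSeq 0.6.1 and mm9 were used, per the submitters' processing notes. The sources used here do not give their settings or annotation. Sense and antisense reads of overlapping genes were not separable. The 5 rows per file that name no gene stayed out (outside genes, 15.1% to 20.5% of counts; not unique, 8.44% to 11.2%; ambiguous, 0.883% to 1.09%). No 2 libraries of a genotype were repeats (chi-square per degree of freedom at least 62.1 over 42 pairs).

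Counts were fitted in R 4.3.3 with edgeR 4.0.16 (filterByExpr, minimum count 10 and total 15; TMM; quasi-likelihood F test; no covariate) over the whole table, and checked on simulated counts. The SE is the fold change divided by the root of F, and 95% intervals use the degrees of freedom of the fit. DESeq2 1.42.0 and limma 3.58.1 (voom) were alternatives. Log2 CPM used a prior count of 2. Correlations used SciPy 1.17.1 and NumPy 2.4.6, with 100000 permutations for 11 libraries and all pairings for 7.

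The genes and lists were chosen with earlier results of these data known. Genes were named by a fixed rule: the 10 genes, Crebbp, and of each pathway list up to 4 called genes by smallest p, or otherwise the 2 with the smallest p. Of the likest genes, predicted genes were left out. In the pathway and marker lists 4 symbols were not matched to the files. Replicate numbers are shared by the genotypes and were tried as a block.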

Additional observations from a re-analysis of the deposited data

Results flagged for a closer look

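Fosb in RP tumour 1, at 11.7 CPM, stood far above the other 6 RP tumours, of which the next was at 4.49 CPM, a gap of 0.683 of the range of the group. Of 20 sets of 7 values checked in this way (10 genes in 2 genotypes) 1 was marked, and chance marks about 1 in 20.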

How the results depend on the processing

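The median log2 fold change of the 10 genes was negative in all 24 alternatives (14 that left out a tumour, -0.71 to -0.55). The median pair correlation stayed positive in its 17 (0.21 to 0.34 when a tumour was left out). Junb, Jun, Egr1, Fos, Fosb, Btg2 and Atf3 kept a negative and Dusp1 a positive sign throughout. The count of the 10 genes called, 1 in the fit reported, was 3 with DESeq2 (Jun, Junb and Egr1) and 0 with upper-quartile factors, no filter, the replicate block, a term for the non-tumour marker level, and with RPC tumours 3, 5 and 6 left out, and 0 to 2 when 1 tumour was left out. The 8 other early genes were 11 with DESeq2, 1 with the block, 0 with the term and 0 without the 3 tumours, and 2 to 10 when 1 tumour was left out (a count chosen after seeing the data). All genes called, 327, became 1431 with DESeq2, 503 with limma-voom, 74 with the block, 3 with the term, 11 without the 3 tumours, and 51 to 898 when 1 tumour was left out. Nr4a1, near 0, changed sign with upper-quartile factors (-0.0084), no filter (-0.019), limma-voom (-0.013), the block (-0.0012), the term (-0.26) and without the 3 tumours (-0.19), and ranged from -0.16 to 0.15 when 1 tumour was left out; Ier2 ranged from -0.17 to 0.0040 then. The cause of these shifts was not tested. The labels do not say whether the numbers pair the tumours. The r of same-numbered deviations was over 0.1 in 3 of 7 pairs (0.29, 0.22 and 0.32 for numbers 3, 5 and 7). Of the 7 RPC tumours, 3 correlated best with the RP tumour of their number, and these values do not settle whether numbers pair tumours.

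Depth limits Fosb most, with as few as 7 counts in a library.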
